A study of Mus musculus with 6 samples.

Results

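The proteasome genes described here are those whose mouse symbol is Psma, Psmb, Psmc, Psmd, Psme, Psmf or Psmg followed by a number. They were found by matching the RefSeq accession of each gene probe to a symbol. They number 48 of the 20659 symbols carried by the array and are measured by 59 of its 39429 gene probes, 37 genes by 1 probe and 11 genes by 2. Psmc3ip and Psme3ip1, whose symbols go on after the number, name interacting proteins and were left out. After a filter on dim probes, 46 of the 48 entered the tests. The other two, the testis alpha subunit Psma8 and the thymus beta subunit Psmb11, were not well above background on any array.

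The proteasome degrades proteins that carry chains of ubiquitin. Its 20S core is a barrel of stacked rings, the outer ones made of alpha subunits and the inner ones of beta subunits, of which Psmb5, Psmb6 and Psmb7 hold the active sites. Interferon exchanges those for Psmb8, Psmb9 and Psmb10, which gives the immunoproteasome. The 19S regulatory particle caps the core: its base holds the Psmc ATPases that unfold a substrate, and its lid, together with base subunits named Psmd, binds ubiquitin chains and cuts them off. Podocytes are long-lived, rarely replaced cells of the kidney filter, in which protein degradation by proteasome and autophagy is known to matter.

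The cells were mouse podocytes immortalised with a temperature-sensitive SV40 large T antigen, grown at 33 degrees and then moved to 37 degrees for 10 days of differentiation. All had received a lentiviral pGIPZ construct. It coded for a short hairpin RNA (shRNA) against the long noncoding RNA Tug1 in shTug1 clone 2 and in shTug1 clone 3, and for a scrambled hairpin in shControl. Each group had 2 arrays from biological replicates, and each shTug1 group is 1 clone. Total RNA was labelled with Cy3 and hybridised to Agilent mouse 4x44K arrays.

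The hairpin's target did not pass as lower in either group labelled shTug1. The Tug1 probe that was tested measured -1.86 and -1.88 in clone 2, -3.10 and -3.23 in clone 3, and -2.88 and -2.49 in shControl, as log2 signal over each array's 75th percentile. Clone 2 thus lay above both shControl arrays and clone 3 below them, and neither differed past the threshold in limma (adjusted p = 0.0798 in clone 2 and 0.3213 in clone 3). Another Tug1 probe, well above background on 3 arrays, measured -2.73 and -2.94 in clone 2, -6.36 and -3.58 in clone 3, and -6.21 and -6.38 in shControl, so that clone 2 and 1 clone 3 array lay above shControl, a difference that was not tested. A further one was well above background on no array. Directions below therefore belong to libraries labelled shTug1, and none is tied to a lower Tug1 level. The 75th percentile of intensity was 1055 and 949.3 in clone 2, 569.2 and 831.6 in clone 3, and 324.3 and 363.3 in shControl. The scan named in the file headers followed the label, with both shControl arrays in scan 1 and the 4 shTug1 arrays in scan 2, so scan and hairpin cannot be told apart. Of 16 podocyte markers with a probe, 13 were well above background on all 6 arrays. Their summed linear signal over the 75th percentile was 125.6 and 132.7 in clone 2, 163 and 144.7 in clone 3, and 328.6 and 237.9 in shControl.

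The proteasome genes split in both directions. Against shControl, the mean of the shTug1 clones was higher for 13 of 46 genes, against 10.2% of all 21470 genes tested, and lower for 17 of 46, against 30.4% of all genes (limma, Benjamini-Hochberg adjusted p below 0.05 over all genes). Psmd14 and Psmf1, among the 13, passed the filter through the shTug1 groups, where they are high, so that count was partly fixed by the filter. With only probes well above background on all 6 arrays, 11 of 44 genes rose, beside 8.64% of all genes. The largest rise was that of Psmd14, the lid enzyme that removes ubiquitin chains, although 1 of its 2 shControl arrays was not well above background and with normexp background correction Psma6 (2.39) exceeded it (1.95), and the largest fall that of Psmb10, an immunoproteasome catalytic subunit. The 16 genes that did not pass ranged from -1.10 to 1.23 on the log2 scale, 11 below 0 and 5 above it (adjusted p from limma between 0.06086 and 0.8412). Over all 46, the median log2 fold change was -0.45, beside -0.64 for all genes, so that 26 of the 46 lay above the median gene. In bulk RNA from a culture, fewer cells expressing a gene and less RNA per cell cannot be told apart.

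**Figure D1:**
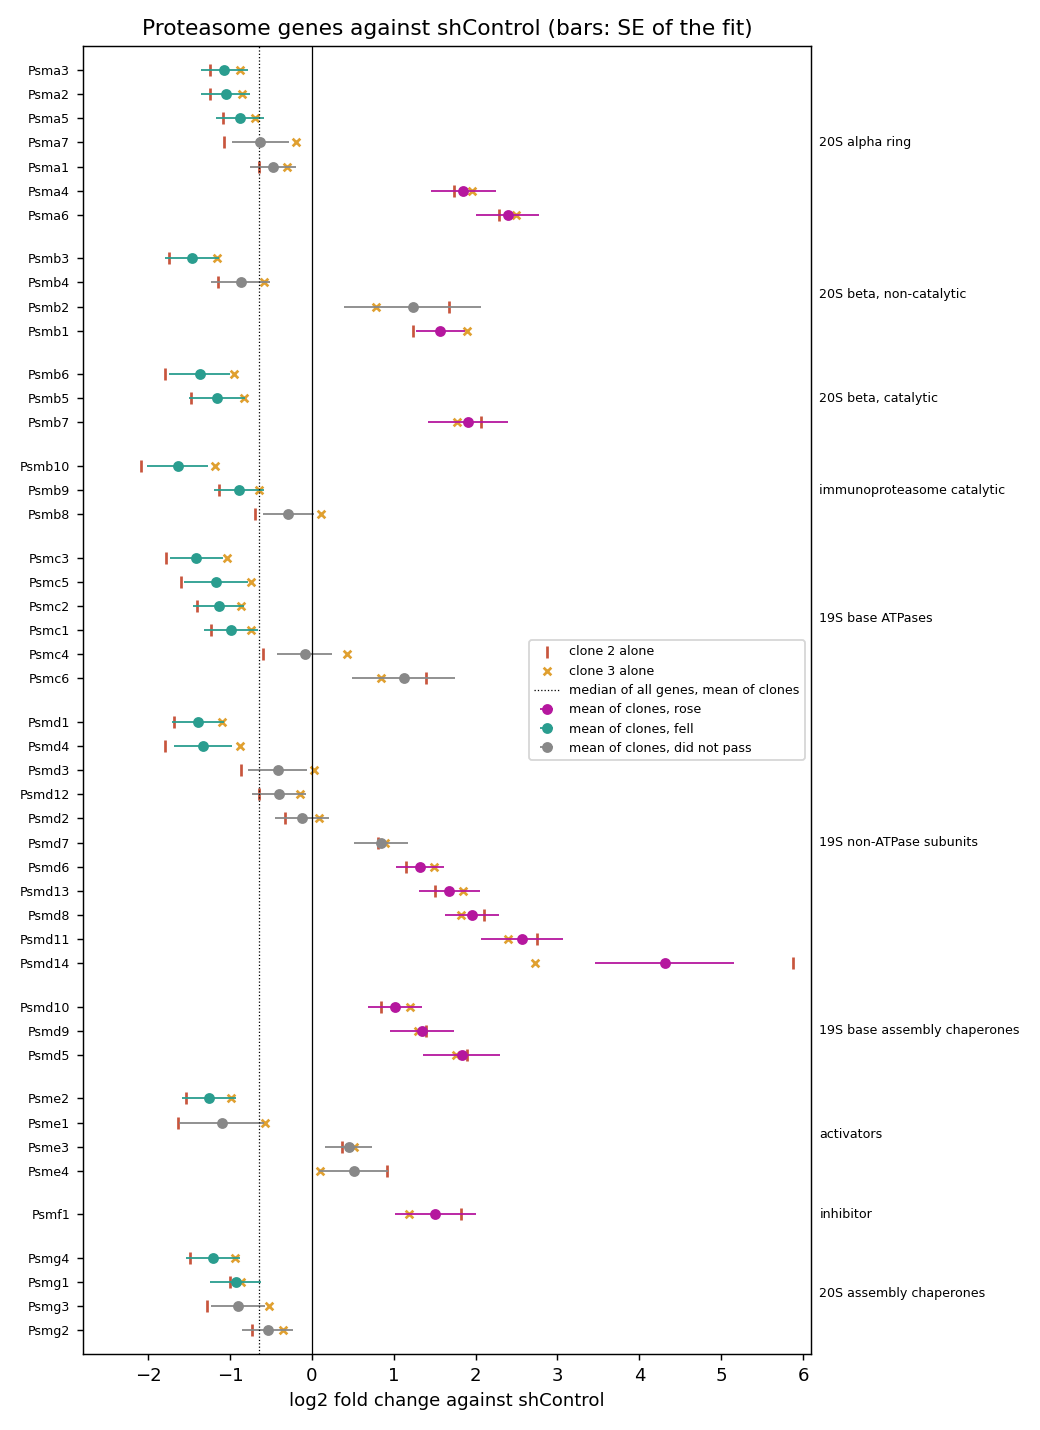
Log2 fold change of each of the 46 proteasome genes tested (one per line), with the mean of the shTug1 clones as points with the standard error of the fit, clone 2 and clone 3 alone as ticks and crosses, and the median of all genes as a dotted line. The points run from -1.64 for Psmb10 to 4.31 for Psmd14; with quantile normalization 16 of the 17 falls no longer passed and Psma2 and Psma3 lay above 0.

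Quantile normalization ended nearly all of the falls and few of the rises, whereas median scaling and normexp background correction ended fewer falls. With quantile normalization in place of 75th-percentile scaling, 14 proteasome genes rose and 1 fell, against 11.5% and 14.5% of all genes. Rises were 93.3% of the calls, where 75th-percentile scaling gave 43.3%, a change that came from the falls (1 in place of 17) more than from the rises (14 in place of 13). Of the 13 genes that rose, 13 kept their sign and 11 passed again, the exceptions being Psmd9 and Psmf1. Of the 17 that fell, 15 kept their sign and Psmb10 alone passed again (log2 fold change -0.75, adjusted p from limma = 0.04416), while Psma2 and Psma3 turned to 0.02 and 0.10. The median of all genes was -0.24 under that scaling. With median scaling of each array, 13 of the 13 rises and 13 of the 17 falls passed again, and with normexp background correction 12 and 17 did, with every sign kept. Of all genes, 27.6% fell with median scaling and 59.2% with normexp. Psmc4, Psmd2 and Psmd7, which did not pass with 75th-percentile scaling (-0.09, -0.12 and 0.85), were 0.74, 0.71 and 1.44 with quantile normalization and passed.

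**Figure D2:**
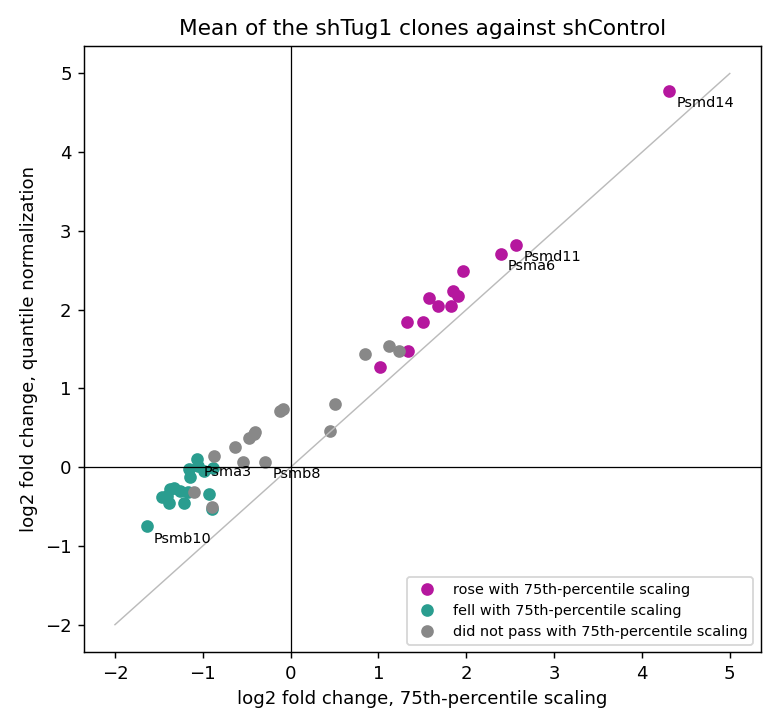
Log2 fold change of the 46 proteasome genes, mean of the shTug1 clones against shControl, with 75th-percentile scaling on the horizontal axis and quantile normalization on the vertical axis, the grey line marking equal values. All 13 rises stay above 0, whereas the 17 falls move to between -0.75 and 0.10.

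The calls also depended on single arrays. Without shControl replicate 1, 7 proteasome genes rose and 7 fell, beside 7.63% and 15.9% of all genes. Without shControl replicate 2, 16 rose and 24 fell, beside 15.1% and 51.4%. The counts were 10 and 6 without clone 2 replicate 1 (8.5% and 18.8% of all genes) and 12 and 7 without clone 2 replicate 2 (8.91% and 21.8%). Leaving out clone 3 replicate 1 gave 4 rises and 0 falls (4.06% and 3.09% of all genes), and leaving out clone 3 replicate 2 gave 0 and 0 (1.09% and 0.508%). Each of the 13 rises and 17 falls kept its sign in these 6 fits. In the scaled values behind these calls, without a model, all 4 shTug1 arrays lay above both shControl arrays for 15 genes. That was so for 12.3% of all genes. All 4 lay below both shControl arrays for 19 genes (43.1% of all genes), and the groups overlapped for 12. These counts need no model but depend on the scaling, and whether they hold with quantile normalization was not tested.

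Promoter windows were examined for 3 short motifs because both Nrf1 (Nfe2l1), the factor that raises proteasome genes when the proteasome is inhibited, and interferon signalling are known to act on these genes. Windows of 250 bases before the start site were found for 40 of the 48 genes (RefSeq, build GRCm38.p6). The core of the antioxidant response element, TGACNNNGC, to which Nrf1 binds, was present on either strand in 12.5% of them, beside 11.5% of 27025 genes with a window. CCAAT was present in 35% (37.5% of all genes) and the STAT motif TTCNNNGAA in 5% (8.13% of all genes). By direction of the mean comparison, TGACNNNGC was in 1 of 11 genes that rose, in 2 of 16 that fell and in 2 of 12 that did not pass. A match is a description of these letters and not a shown binding site. The last 100 bases before the start are given below for Psmb5, Psmb6 and Psmd9, whose matches are the closest to the start and which moved in opposite directions, and for the interferon-inducible Psmb8. Each is written on the strand of its gene, with the matched letters in capitals.
Psmb5, chr14:54617996-54618095, minus strand: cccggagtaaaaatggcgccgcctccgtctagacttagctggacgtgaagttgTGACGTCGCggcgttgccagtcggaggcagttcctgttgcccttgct
Psmb6, chr11:70525257-70525356, plus strand: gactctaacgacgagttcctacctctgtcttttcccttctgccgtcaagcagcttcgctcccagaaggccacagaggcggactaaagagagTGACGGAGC
Psmd9, chr5:123228090-123228189, plus strand: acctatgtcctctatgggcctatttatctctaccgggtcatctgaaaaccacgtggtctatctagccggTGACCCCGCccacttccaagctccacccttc
Psmb8, chr17:34198095-34198194, plus strand: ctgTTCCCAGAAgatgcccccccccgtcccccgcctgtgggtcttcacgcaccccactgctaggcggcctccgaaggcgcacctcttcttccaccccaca
The matches lie 47 to 39 bases before the start in Psmb5, 9 to 1 in Psmb6, 31 to 23 in Psmd9 and 97 to 89 in Psmb8. Psmb5 and Psmb6 fell and Psmd9 rose with 75th-percentile scaling, and none of the 3 passed with quantile normalization.

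In the alpha ring, which gates the entry to the core, 2 of 7 genes rose and 3 fell, with a median of -0.63. Of all genes, 10.2% rose and 30.4% fell. Psma6 measured 3.31 and 2.87 in clone 2, 3.13 and 3.46 in clone 3, and 0.30 and 1.31 in shControl. All 4 shTug1 arrays lay above both shControl arrays by more than the shControl arrays differed, and the log2 fold change of the mean was 2.39 (SE 0.38, adjusted p from limma = 0.01039), a 5.25-fold rise. Psma4 measured 3.31 and 3.04 in clone 2, 3.25 and 3.52 in clone 3, and 0.82 and 2.04 in shControl, which gave 1.85 (SE 0.40, adjusted p from limma = 0.0167). For both genes shControl replicate 1 was the lowest array, about 1 log2 unit below replicate 2. Psma2, Psma3 and Psma5 fell by 1.05, 1.07 and 0.88 on the log2 scale with no overlap of the groups, calls that quantile normalization ended. Psma1 (-0.47) and Psma7 (-0.63) did not pass.

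The beta subunits without an active site gave 1 rise and 1 fall among 4 genes, beside 10.2% and 30.4% of all genes. Psmb1 measured 4.08 and 3.77 in clone 2, 4.60 and 4.57 in clone 3, and 2.44 and 2.93 in shControl. The groups did not overlap, clone 3 was the highest, and the log2 fold change was 1.57 (SE 0.30, adjusted p from limma = 0.0143). Psmb3 measured 5.89 and 6.06 in clone 2, 6.83 and 6.30 in clone 3, and 8.02 and 7.44 in shControl, and its log2 fold change was -1.46 (SE 0.33, adjusted p from limma = 0.018). With quantile normalization it was -0.38 and did not pass. Psmb2 had the largest difference between replicates of any proteasome gene in shControl: it measured 1.26 and 1.58 in clone 2, 1.44 and -0.40 in clone 3, and -1.80 and 1.29 in shControl. Its groups overlapped and its log2 fold change of 1.23 did not pass. Psmb4 (-0.87) did not pass either.

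Of the constitutive catalytic subunits, 1 rose and 2 fell, beside 10.2% and 30.4% of all genes. Psmb5, the chymotrypsin-like subunit and the main target of bortezomib, measured 6.67 and 6.51 in clone 2, 7.43 and 7.05 in clone 3, and 8.45 and 7.70 in shControl. Psmb6, the caspase-like subunit, measured 6.25 and 6.14 in clone 2, 7.16 and 6.90 in clone 3, and 8.52 and 7.45 in shControl. For both, clone 2 was lowest, clone 3 lay between and no shTug1 array reached shControl. The log2 fold changes were -1.16 for Psmb5 (SE 0.34, adjusted p from limma = 0.0312) and -1.37 for Psmb6 (SE 0.37, adjusted p from limma = 0.0261), and with quantile normalization -0.02 and -0.28, neither of which passed. Psmb7, the trypsin-like subunit, went the other way. It measured 2.89 and 2.25 in clone 2, 2.16 and 2.40 in clone 3, and -0.34 and 1.37 in shControl, and its log2 fold change was 1.91 (SE 0.49, adjusted p from limma = 0.0233). With quantile normalization it was 2.18 and passed. Without shControl replicate 1 its adjusted p from limma was 0.071.

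Of the immunoproteasome subunits, which interferon induces, 2 of 3 fell, beside 30.4% of all genes. Psmb10 measured 4.21 and 3.94 in clone 2, 5.06 and 4.90 in clone 3, and 6.70 and 5.63 in shControl. Clone 2 was below clone 3 and both were below shControl. The log2 fold change was -1.64 (SE 0.37, adjusted p from limma = 0.01802), with shControl 3.11-fold higher. Psmb9 measured 1.25 and 0.77 in clone 2, 1.65 and 1.36 in clone 3, and 2.13 and 2.16 in shControl, and its log2 fold change of -0.89 (SE 0.30) passed narrowly (adjusted p from limma = 0.0493) and not with quantile normalization (-0.53). Psmb8 measured 1.45 and 0.96 in clone 2, 2.08 and 1.92 in clone 3, and 2.04 and 1.75 in shControl. Clone 3 reached shControl there, so the groups overlapped, and the log2 fold change of -0.29 (adjusted p from limma = 0.448) was 0.07 with quantile normalization. Psmb9 and Psmb8 are neighbours on chromosome 17, in the order Psmb9, Tap1, Psmb8, Tap2.

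Other genes of antigen processing and interferon signalling did not share 1 direction: of 11 tested, 2 rose and 3 fell. Of all genes, 10.2% rose and 30.4% fell. Tap1, which carries peptides into the endoplasmic reticulum, measured -1.66 and -2.20 in clone 2, -4.06 and -2.57 in clone 3, and -6.19 and -4.75 in shControl, where it was not well above background on either array. It was therefore at least 5.16-fold higher in clone 2 and at least 1.98-fold higher in clone 3 than the dimmest measurable signal in shControl (adjusted p from limma = 0.01215 and 0.06698). With normexp background correction, the mean comparison of Tap1 was 0.41 and did not pass (adjusted p from limma = 0.1608). For this bound, a dim array counts at the weakest signal it could measure above background, or at the probe's own value where that was larger. The Tap1 probe passed the filter through the shTug1 groups, where it is high, so its place among the 2 rises was partly fixed by the filter. Pdia3, a chaperone of peptide loading, rose by 2.72. With quantile normalization 4 of the 11 rose and 1 fell, beside 11.5% and 14.5% of all genes. Nlrc5, an activator of class I genes, was -1.69 and Irf1, an interferon-regulated transcription factor, -1.53, both past the threshold with 75th-percentile scaling, as was B2m, the class I light chain, at -1.15. With quantile normalization Nlrc5 still passed (-1.21), whereas Irf1 (-0.68) and B2m (0.05) did not. Markers of immune cells were also lower in sum. Their summed signal was 2.679 and 2.537 in clone 2, 3.902 and 3.116 in clone 3, and 13.04 and 7.819 in shControl, of 5 tested 1 (Itgam, the brightest) fell and none rose, with a median of -0.78 beside -0.64 for all genes, 4 of 6 with a probe were well above background on all arrays and Lyz2 on none. Their part in the result was not tested.

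**Figure D3:**
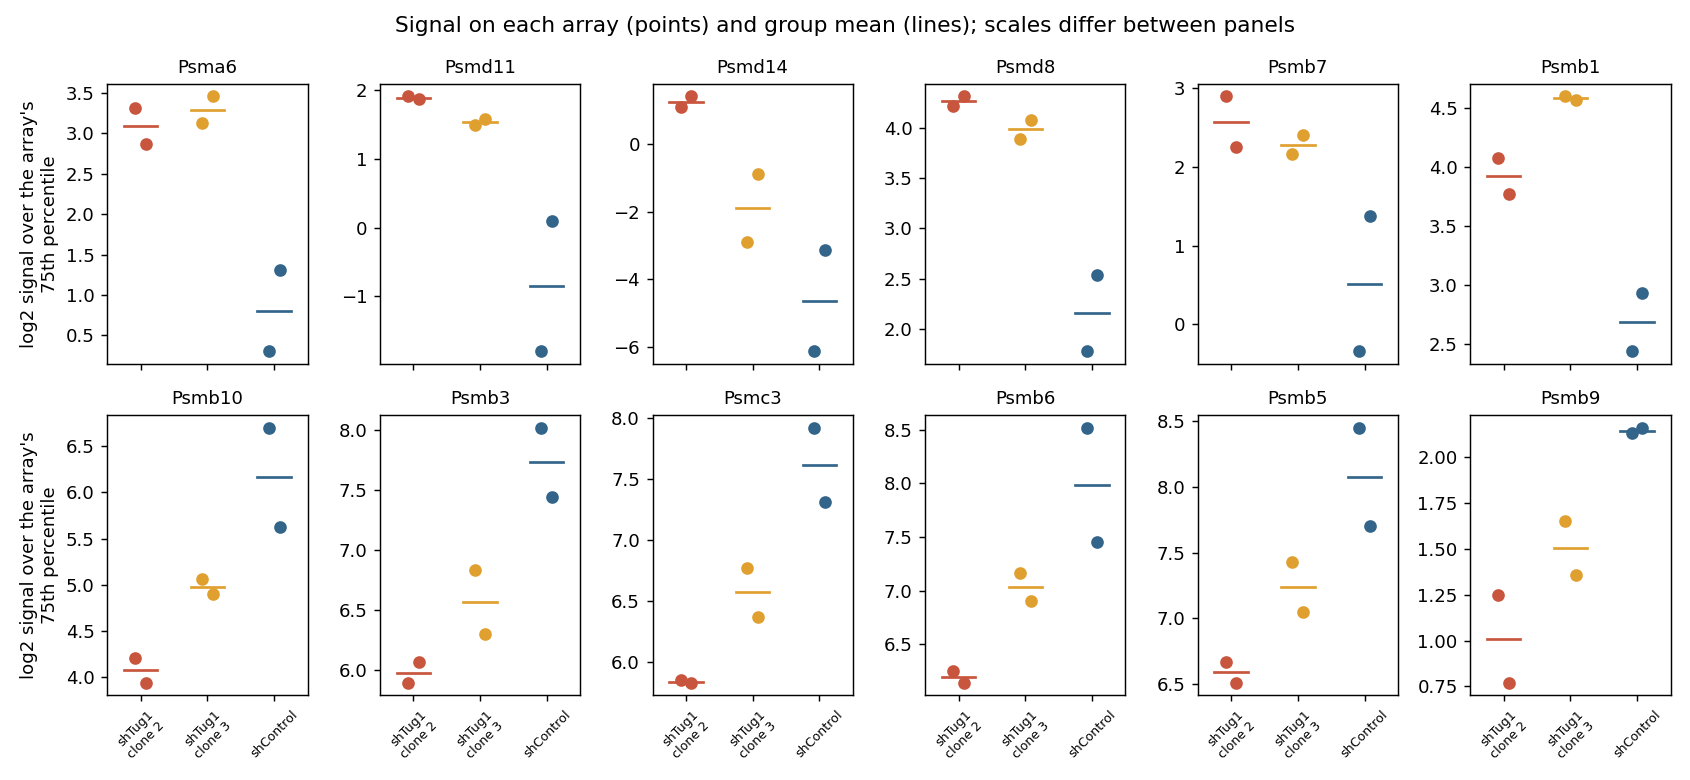
Log2 signal over the 75th percentile on each array for selected proteasome genes, with shTug1 clone 2, shTug1 clone 3 and shControl from left to right and each point 1 array. Psmd14 runs from 1.40 in clone 2 to -6.13 in shControl, and Psmb10 from 3.94 in clone 2 to 6.70 in shControl.

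Among the 6 ATPases of the 19S base, which unfold substrates and open the core, 4 fell and none rose by their brightest probes with 75th-percentile scaling. Of all genes, 30.4% fell and 10.2% rose. The median of the 6 was -1.06. All but Psmc6 had a probe signal above 4, a band in which 57.5% of all genes fell. Psmc3 measured 5.85 and 5.83 in clone 2, 6.77 and 6.37 in clone 3, and 7.92 and 7.31 in shControl, and its log2 fold change was -1.41 (SE 0.32, adjusted p from limma = 0.0181). Psmc5 measured 4.16 and 4.25 in clone 2, 5.18 and 4.93 in clone 3, and 6.40 and 5.20 in shControl, and its log2 fold change was -1.17 (SE 0.39, adjusted p from limma = 0.0455). Clone 3 replicate 1 came within 0.02 of the lower shControl array for Psmc5. Psmc2 (-1.14) and Psmc1 (-0.99) also fell, and none of the 4 passed with quantile normalization (values from -0.36 to -0.05). The dimmer probe of Psmc1 rose by 1.11 with 75th-percentile scaling (adjusted p from limma = 0.0419). Psmc4 (-0.09) and Psmc6 (1.12) did not pass. Psmc6 measured 3.56 and 3.42 in clone 2, 2.75 and 3.15 in clone 3, and 0.83 and 3.36 in shControl, so that its value rested on shControl replicate 1.

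The non-ATPase subunits of the 19S particle were the largest group: 5 of 11 rose and 2 fell, beside 10.2% and 30.4% of all genes, with a median of 0.85. Psmd14 measured 1.09 and 1.40 in clone 2, -2.91 and -0.89 in clone 3, and -6.13 and -3.13 in shControl. The 3 groups were in separate ranges, but the 2 shControl arrays and the 2 clone 3 arrays were themselves far apart, and shControl replicate 1 was not well above background. The Psmd14 probe passed the filter through the shTug1 groups, where it is high, so its place among the 5 rises was partly fixed by the filter. The log2 fold change was 4.31 (SE 0.85, adjusted p from limma = 0.01472), a 19.8-fold rise over a value close to background. Without shControl replicate 1 it was 2.80 and missed the threshold (adjusted p from limma = 0.0612), and without clone 3 replicate 2 it was 3.80 (adjusted p from limma = 0.0566). With normexp background correction it was 1.95.

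Psmd11, a lid subunit, measured 1.91 and 1.87 in clone 2, 1.5 and 1.58 in clone 3, and -1.80 and 0.10 in shControl. Its shTug1 arrays agreed closely while the shControl arrays did not, and the log2 fold change was 2.57 (SE 0.50, adjusted p from limma = 0.01464). Psmd8 measured 4.21 and 4.31 in clone 2, 3.89 and 4.08 in clone 3, and 1.78 and 2.54 in shControl, and its log2 fold change was 1.96 (SE 0.33, adjusted p from limma = 0.0118). Psmd13 measured 2.94 and 2.91 in clone 2, 3.41 and 3.12 in clone 3, and 0.87 and 1.96 in shControl, and its log2 fold change was 1.68 (SE 0.37, adjusted p from limma = 0.0175). These lid subunits kept separate ranges in shTug1 and shControl arrays. Psmd6, another lid subunit, rose by 1.32, and Psmd7, the inactive partner of Psmd14, was 0.85 and did not pass (adjusted p from limma = 0.0734), although it passed with quantile normalization (1.44).

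Both non-ATPase genes that fell with 75th-percentile scaling are counted with the base. Psmd1, its large scaffold, measured 5.13 and 5.02 in clone 2, 5.70 and 5.61 in clone 3, and 7.10 and 6.40 in shControl, and its log2 fold change was -1.39 (SE 0.32, adjusted p from limma = 0.0183). Psmd4, a receptor for ubiquitin chains, measured 5.81 and 5.92 in clone 2, 6.89 and 6.65 in clone 3, and 8.12 and 7.18 in shControl, and its log2 fold change was -1.33 (SE 0.35, adjusted p from limma = 0.0247). Every shTug1 array was below shControl for both, and with quantile normalization the values were -0.45 and -0.27 and did not pass. Psmd2 (-0.12), Psmd3 (-0.42) and Psmd12 (-0.40) did not pass with 75th-percentile scaling.

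Base assembly chaperones hold the ATPases in pairs before the base is built and are absent from the finished particle. All 3 rose, beside 10.2% of all genes. Psmd5 measured 1.61 and 2.02 in clone 2, 1.88 and 1.46 in clone 3, and -0.89 and 0.71 in shControl, and its log2 fold change was 1.83 (SE 0.47, adjusted p from limma = 0.0226). Psmd9 was 1.34 (adjusted p from limma = 0.0312) and Psmd10, also known as gankyrin, 1.02 (adjusted p from limma = 0.041). The dimmer probe of Psmd10 went the other way, at -0.46, and did not pass. With the reported probes, the shTug1 arrays of all 3 lay above the shControl arrays. Psmd9 did not pass with quantile normalization (1.47, adjusted p from limma = 0.0612), and none of the 3 passed without shControl replicate 1 (adjusted p from limma 0.062, 0.087 and 0.085 for Psmd5, Psmd9 and Psmd10).

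The activators that can replace the 19S cap gave 1 fall among 4 genes, beside 30.4% of all genes. Psme2, which forms the PA28 ring with Psme1, measured 5.51 and 5.52 in clone 2, 6.19 and 5.94 in clone 3, and 7.46 and 6.65 in shControl, and its log2 fold change was -1.26 (SE 0.33, adjusted p from limma = 0.0249). With quantile normalization it was -0.30 and did not pass. Psme1 had a similar value of -1.10 but its shControl arrays lay at 5.69 and 3.71, clone 3 lay between them, and it did not pass. Psme3 (0.45), the nuclear PA28 gamma, and Psme4 (0.51), which encodes PA200, did not pass. Psmf1, the PI31 protein named for inhibiting the core, measured -1.74 and -2.63 in clone 2, -3.39 and -2.24 in clone 3, and -4.55 and -3.46 in shControl, where replicate 1 was not well above background. Its ranges nearly touched, the log2 fold change was 1.51 (SE 0.49, adjusted p from limma = 0.0423), and with quantile normalization it did not pass (adjusted p from limma = 0.0649). With normexp background correction Psmf1 was 0.19 (adjusted p from limma = 0.5273). Its probe passed the filter through the shTug1 groups, where it is high, so its rise was partly fixed by the filter.

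The Psmg chaperones, which assemble the core, gave 2 falls and no rise among 4 genes with 75th-percentile scaling. Of all genes, 30.4% fell and 10.2% rose. Psmg4 measured 3.09 and 2.98 in clone 2, 3.73 and 3.44 in clone 3, and 4.92 and 4.13 in shControl, and its log2 fold change was -1.21 (SE 0.33, adjusted p from limma = 0.0276). Psmg1 was -0.93 (adjusted p from limma = 0.047), and Psmg3 (-0.90) and Psmg2 (-0.54) did not pass. With quantile normalization neither fall passed, at -0.46 for Psmg4 and -0.34 for Psmg1.

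Proteasome genes that carry other names gave 5 falls and no rise among 6 with 75th-percentile scaling, and 0 calls in either direction with quantile normalization. Of all genes, 30.4% fell and 10.2% rose with 75th-percentile scaling, and 14.5% fell and 11.5% rose with quantile normalization. Adrm1, a ubiquitin receptor of the base, was -1.51 and Pomp, which matures the core, -1.36. Uba1, the main ubiquitin-activating enzyme, was -1.48 and passed with 75th-percentile scaling, and was -0.37 and did not pass with quantile normalization. Shuttle and extraction factors, which bring substrates to the proteasome, gave 4 rises and 4 falls among 15 genes, and 5 rises and 0 falls with quantile normalization. Rad23b, a shuttle receptor, measured 1.5 and 2.01 in clone 2, 1.04 and 1.46 in clone 3, and -2.95 and -0.67 in shControl, and its log2 fold change was 3.32 (adjusted p from limma = 0.01279). Ubqln2, another shuttle, was 3.60, with 1 of 2 shControl arrays well above background, and 1.5 with normexp background correction. The Ubqln2 probe thus passed the filter through shTug1 arrays, where it is high. Its place among the 4 rises, and the 5 with quantile normalization, was partly fixed by the filter. Ufd1 and Nploc4, which work as a pair with the segregase Vcp, were -1.55 and -1.54, and did not pass with quantile normalization (-0.88 and -0.77).

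The transcription factors that control proteasome genes did not pass with 75th-percentile scaling. Nfe2l1 measured -2.49 and -2.79 in clone 2, -2 and -2.21 in clone 3, and -3.08 and -3.01 in shControl, and its log2 fold change was 0.67 (adjusted p from limma = 0.09364) with no overlap of the groups. With quantile normalization Nfe2l1 was 0.92 and passed (adjusted p from limma = 0.0403), with median scaling it was 0.80 and passed (0.04838), and with normexp background correction it was 0.02 (0.9544). Nfe2l2 was 1.89 (adjusted p from limma = 0.07423), with its shControl arrays at -0.48 and 2.63. Of the 4 genes of this list 1 rose, where 10.2% of all genes did. It was Ipo9, an import receptor that carries proteasomes into the nucleus, at 1.49. With 75th-percentile scaling, 7 of 14 podocyte, 2 of 5 mesangial, 2 of 4 endothelial and 2 of 6 tubular markers fell, beside 30.4% of all genes. Among tubular markers 1 rose, Cldn1 (2.06), whose probe was not well above background on either shControl array. The Cldn1 probe passed the filter through clone 2, where it is high. With normexp background correction Cldn1 was -0.21 (adjusted p from limma = 0.4577). With quantile normalization the falls were 3, 0, 0 and 2 in that order of lists, beside 14.5% of all genes.

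The clones differed from shControl in different numbers of genes, with fits that share the shControl arrays. In clone 2, 12 proteasome genes rose and 17 fell, against 10.2% and 33.8% of all genes. In clone 3, 7 rose and 0 fell, against 4.35% and 4.68% of all genes. At an unadjusted limma p below 0.05, 10 were lower in clone 3, where 25.2% of all genes were. The median log2 fold change was -0.71 in clone 2 and -0.17 in clone 3, beside -0.80 and -0.46 for all genes. The 5 largest rises called in clone 3 were those of Psma6 (2.49), Psmd11 (2.39), Psma4 (1.95), Psmb1 (1.90) and Psmd13 (1.85). Clone 2 gave 2.29, 2.75, 1.74, 1.24 and 1.51 for those same genes in that order. The clone 3 calls rested on 2 arrays: without either one, 0 proteasome genes and 0% of all genes passed in either direction. Without shControl replicate 2, 14 proteasome genes rose and 16 fell, beside 12.9% and 40.2% of all genes.

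Clone 3 was compared with clone 2 directly, within 1 scan and with group means that leave out shControl. The estimate of the spread was still shared with the shControl arrays. For the proteasome genes, the median absolute difference between replicates was 0.80 in shControl, beside 0.17 in clone 2 and 0.27 in clone 3. What a spread from the clones alone would give was not tested. With each gene's brightest probe, no proteasome gene passed in limma in either direction, against 0.345% of all genes higher and 0.922% lower in clone 3. At an unadjusted p below 0.05, 1 was higher and 1 was lower, against 5.51% and 6.39% of all genes. The median log2 difference was 0.40, beside 0.38 for all genes, and both clone 3 arrays lay above both clone 2 arrays for 31 of 46 genes, and below them for 5, beside 58.9% and 16.4% of all genes. Among these brightest probes, that of Psmd14 had the largest difference, at -3.15 (adjusted p from limma = 0.27). The counts of calls against shControl thus differed between the clones without a difference past the threshold for any gene's brightest probe. In the fit over all probes, the dimmer probe of Psmd12 did pass, at -4.16 (adjusted p from limma = 0.02551). It had passed the filter through clone 2, where it is high.

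Whether a proteasome gene rose or fell went with the signal of its probe. This grouping was chosen after the values were seen, and a probe's signal also depends on its sequence, so it is not a level of the gene. Of 21 genes with a mean log2 probe signal above 4, none rose and 14 fell, beside 2.21% and 57.5% of all genes in that band. Of 20 with a signal from 0 to 4, 10 rose and 3 fell, beside 10.3% and 36.1%. Of 5 below 0, 3 rose and none fell, beside 11.7% and 22.5%, but Psmd14 and Psmf1 among them passed the filter through the shTug1 groups, where they are high, so the count in this band was partly fixed by the filter. Across the 46 genes, Pearson's r between probe signal and log2 fold change was -0.70 and Spearman's rho -0.73, and both were -0.12 over all 21470 genes. These are correlations across genes that share the same 6 arrays, and genes are not independent replicates. The sets also cover unlike signal ranges, so their coefficients are not a like comparison. Of all 21470 genes, 13016 had a signal below 0, beside 5 of the 46. With quantile normalization, Psmc4 (0.74) and Psmd2 (0.71), both with a probe signal above 4, rose past the threshold. Of the 14 falls above 4, Psmb10 alone passed again.

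**Figure D4:**
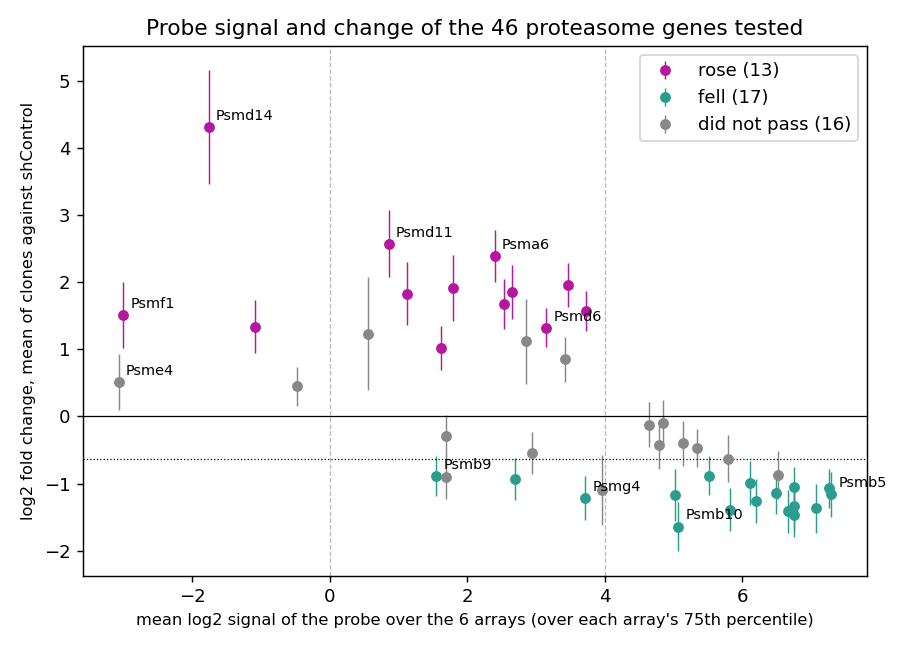
Mean log2 probe signal over the 6 arrays (horizontal axis) and log2 fold change of the mean of the shTug1 clones against shControl (vertical axis, bars the standard error of the fit) for the 46 proteasome genes tested. No gene with a probe signal above 4 rose and none below 0 fell; the 14 falls above 4 include 13 that did not pass with quantile normalization.

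The spread of the proteasome genes also differed between arrays. Their interquartile range was 3.07 and 3.17 in clone 2, 3.86 and 3.68 in clone 3, and 6.17 and 4.52 in shControl. The median absolute difference between the 2 arrays of a group was 0.17 in clone 2, 0.27 in clone 3 and 0.80 in shControl. Over all genes it was 0.22, 0.24 and 0.72 in that order, so this difference was not particular to the proteasome genes. In shControl, replicate 1 was below replicate 2 for 13 of the 13 genes that rose and for 1 of the 17 that fell. Replicate 1 of shControl was thus farther from the shTug1 arrays than replicate 2 was for nearly all of these calls. The interquartile ranges and the replicate order were not compared with all genes, and the part of signal range in the result was not tested.

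For 11 genes a second probe passed the filter, and the pairs often disagreed. The log2 fold changes of the paired probes had opposite signs for 5 genes, and only for Psmc2 did they lie within 0.5 of each other (-1.14 and -1.26). Psmc1 and Psme2 gave calls in both directions. The reported, brighter probe of Psmc1 was -0.99 and its other probe 1.11 (adjusted p from limma = 0.0469 and 0.0419), and those of Psme2 were -1.26 and 1.89 (adjusted p from limma = 0.026 and 0.0224). The dimmer Psme2 probe measured 2.02 and 1.58 in clone 2, 1.53 and 1.79 in clone 3, and -0.98 and 0.66 in shControl, ranges as separate as those of the brighter probe but in the other order.

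Psmd12, a lid subunit, had the widest disagreement. Its reported probe was -0.40 and did not pass, whereas its dimmer probe measured -0.80 and -0.38 in clone 2, -5.79 and -3.71 in clone 3, and -6.31 and -6.61 in shControl, where it was not well above background. That probe was at least 13-fold higher in clone 2 than in shControl (adjusted p from limma = 0.004624). It passed the filter through clone 2, where it is high, and 1 of 2 clone 3 arrays was well above background. Psmd10 (1.02 and -0.46) and Psme4 (0.51 and -0.28) were the other genes with opposite signs. Psma4 and Psmd9 rose by both probes, at 1.85 and 3.01 for Psma4 and at 1.34 and 2.13 for Psmd9. Psmb5, Psmc3 and Psmg1 were lower by both probes, and the dimmer probe did not pass for any of them (-0.25, -0.49 and -0.22). Which transcripts each probe reads was not analysed here, so calls for genes with 1 probe have no such check.

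**Figure D5:**
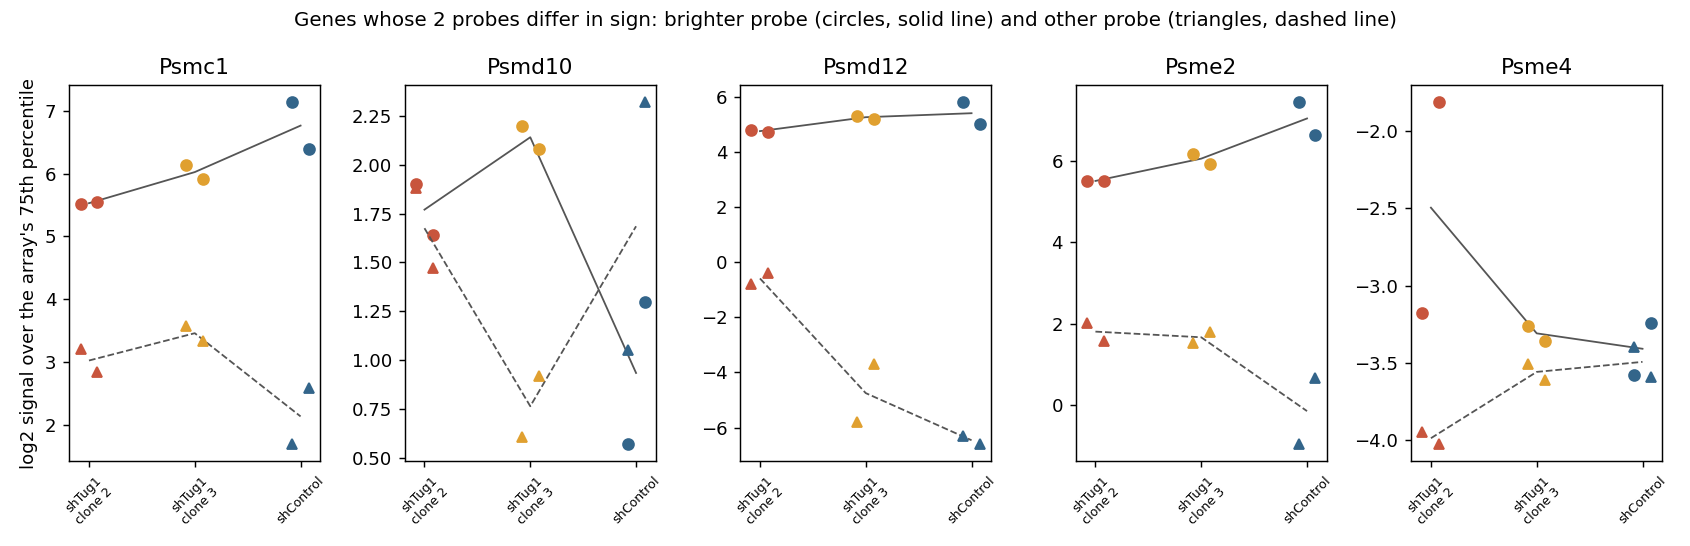
Log2 signal over the 75th percentile on each array for the paired probes of genes whose log2 fold changes had opposite signs, with shTug1 clone 2, shTug1 clone 3 and shControl from left to right. For Psmd12 the dimmer probe runs from -0.38 in clone 2 to -6.61 in shControl, while the brighter probe stays between 4.71 and 5.81.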

How the data were processed

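The 6 arrays were analysed as 3 groups of 2. Per the file headers, the deposited scanner intensity (the processed signal) is background-subtracted, from Agilent Feature Extraction 11.0.1.1. The deposited series values are on a log2 scale, and the sources used here do not state their normalization; fold changes from them differed from those of quantile-normalized values by at most 0.01 for 44 proteasome genes. The header's genome build is mm9, and symbols came from a RefSeq table of build GRCm38.p6 (27234 probes matched, 12195 did not). From the log2 processed signal, each array's 75th percentile over 43020 gene spots was subtracted. Spots marked as outliers were dropped and replicate spots averaged. A probe counted as well above background where over 50% of its spots were, and was kept if that held for both arrays of any group (25555 probes, 25541 complete). Each gene kept its brightest probe, giving 21470 genes. limma 3.58.1 in R 4.3.3 (with the data.table package, version 1.17.8) fitted 3 group means with 3 residual and 4.69 prior degrees of freedom, two-sided, and Benjamini-Hochberg adjustment ran over all genes with a threshold of 0.05. The pipeline was tested on simulated data. No gene spot was saturated, and the number of arrays limits the precision. Figures and motif searches used Python 3.11.15, pandas 2.3.3 and matplotlib 3.10.9.

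Genes named with values for each array were, for the mean comparison, the top 10 called rises and the top 10 called falls, the catalytic subunits, genes with a bound, up to 5 per direction in other comparisons and up to 2 per direction from each other list; a few others that overlapped, disagreed between probes or control proteasome transcription were named after their values were seen. Most genes of the marker lists and some of the other lists that this rule also covers are given in counts or not reported here. The genes and lists were chosen with earlier results of these data known. Alternatives were quantile normalization, normexp background correction (offset 50, on the median signal because the files hold no mean signal), no filter, a stricter filter, all probes, the deposited series values, a replicate block, leaving out each array, and median scaling, which was added after the data were seen.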

Additional observations from a re-analysis of the deposited data

How the results depend on the processing

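Counts of proteasome genes that moved by over 1.5 times were as follows. In the mean comparison, 1 fell with quantile normalization (14.5% of all genes) and 1 with the values of the series (20.5%), and in clone 2 likewise 1 (15.5%) and 1 (22.1%). In clone 3, 11 rose and 3 fell with normexp (6.67% and 25.1% of all genes), and 1 rose with no filter on dim probes (0.928%). In clone 3 minus clone 2, 1 fell with normexp (1.58% of all genes) and 1 with the replicate block (1.61%). Leaving out 1 array at a time gave 0 to 16 rises and 0 to 24 falls in the mean comparison, 4 to 16 and 2 to 26 in clone 2, 0 to 14 and 0 to 16 in clone 3, and 0 to 0 in both directions between clones; fewer arrays leave fewer degrees of freedom, and a lone array is assumed to vary like the other groups. In the comparisons with shControl, clone 2 included, the shares of all genes called also changed with the array left out. The ranges were therefore not shown to be particular to the proteasome genes. Psmb8 was 0.07 with quantile normalization and with the series values. The median of the proteasome genes minus that of all genes in the mean comparison was 0.19 with 75th-percentile scaling, 0.55 with quantile normalization, 0.49 with the series values and 0.46 with normexp. Beyond the construction of each alternative, the cause was not tested. Same-numbered replicates did not deviate together (r of -0.038, 0.106 and -0.089), so the numbers do not pair the samples; with the replicate block 12 genes rose and 14 fell in the mean comparison (10.5% and 30.1% of all genes). Of the 48 genes, 2 were not well above background on any array and 2 more (Psmd14 and Psmf1) lacked it on shControl replicate 1, which limits their fold changes.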
